A study of Mus musculus with 10 samples.

Results

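The genes described are those of the cornified envelope that lie together in the epidermal differentiation complex on mouse chromosome 3. They were chosen by name: every gene whose symbol on the array starts with Sprr or with Lce and a digit, and Ivl, Lor, Flg, Flg2, Hrnr, Rptn and Crnn. The rule found 40 of the 30142 genes measured, with 13 Sprr genes, 13 Lce1 genes, 6 Lce3 genes, 5 filaggrin-type genes (Flg, Flg2, Hrnr, Rptn and Crnn), and Lor, Ivl and Lce6a. Of these, 38 passed the level filter, a mean above 4.171 on the log2 scale, and Sprr3 and Crnn lay below it.

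Expression was measured on Affymetrix mouse Clariom D arrays in skin wounds of male diabetic mice, 11 weeks old, of genotype db/db [BKS(D)-Leprdb/JOrlRj)] with C57BL/6 as the strain background. These animals lack a working leptin receptor and are a model of type 2 diabetes. The miR-132 group (5 arrays) received 0.5 nmol of miR-132 mimic, a synthetic RNA that acts like the microRNA, and the control group (5 arrays) the same amount of control mimic. Both groups carried the db/db genotype and had 2 dorsal wounds from a 4 mm punch. Both received their mimic in 100 µl with MaxSuppressor In Vivo RNA-LANCEr II at 4 points of the wound edge, were anaesthetised with isoflurane, and had buprenorphine in the first days. Wound-edge biopsies were taken on day 6, and nothing in the labels describes a healthy mouse or an uninjured site. The labels do not name the arm of miR-132 that the mimic carries, and its level cannot be read from these values. Values are log2 array signals, and a difference is the miR-132 mean minus the control mean. Fewer cells of a type and less RNA per cell cannot be told apart in such whole-tissue samples.

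The cornified envelope is the protein shell that replaces the membrane of a keratinocyte in the outermost epidermis. Involucrin and the plakins lay down a first scaffold, transglutaminases then crosslink loricrin, small proline-rich (SPRR) and late cornified envelope (LCE) proteins onto it, and filaggrin-type proteins bundle the keratin filaments inside. Loricrin, filaggrin and the LCE1 proteins belong to undisturbed differentiation, whereas SPRR1 and SPRR2 proteins, and in human skin LCE3 proteins, are known for their induction by injury and inflammation.

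The promoter sequences of the 3 families are shown because the families lie side by side and their mean differences between the groups were unlike in size, as given below. They come from RefSeq on GRCm38.p6 and are read 5′ to 3′ along the gene up to the base before its start. Windows were given for 37 of the 40 genes, not for Sprr2g, Sprr2j-ps or Lce1f. Capitals mark the AP-1 motif TGANTCA, the octamer ATTTGCAT, and the TATA box TATAAA or the shorter A/T box ATAAAA, which overlap in TATAAAA.
Sprr2f (chr3:92364977-92365186, plus strand): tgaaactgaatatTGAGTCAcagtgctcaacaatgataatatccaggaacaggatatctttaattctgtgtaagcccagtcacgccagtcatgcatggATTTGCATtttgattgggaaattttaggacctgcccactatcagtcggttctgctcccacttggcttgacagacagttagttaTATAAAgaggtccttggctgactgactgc
Sprr2e (chr3:92351933-92352142, plus strand): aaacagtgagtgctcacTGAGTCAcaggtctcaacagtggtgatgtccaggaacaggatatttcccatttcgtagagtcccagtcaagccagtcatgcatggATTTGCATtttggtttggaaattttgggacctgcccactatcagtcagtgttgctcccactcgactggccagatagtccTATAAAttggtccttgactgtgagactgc
Sprr1b (chr3:92438780-92438929, minus strand): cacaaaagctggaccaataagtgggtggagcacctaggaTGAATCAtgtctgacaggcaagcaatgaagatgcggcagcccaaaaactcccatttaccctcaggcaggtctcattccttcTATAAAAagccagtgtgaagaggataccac
Sprr1a (chr3:92485882-92486031, minus strand): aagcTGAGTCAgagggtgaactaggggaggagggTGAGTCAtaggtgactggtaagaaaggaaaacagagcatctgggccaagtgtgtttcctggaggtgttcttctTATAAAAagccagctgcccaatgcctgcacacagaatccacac
Lce3c (chr3:92944336-92944485, plus strand): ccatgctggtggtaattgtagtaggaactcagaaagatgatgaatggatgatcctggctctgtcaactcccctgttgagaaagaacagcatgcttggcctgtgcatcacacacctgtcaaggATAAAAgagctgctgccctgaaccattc
Lce3d (chr3:92957240-92957389, plus strand): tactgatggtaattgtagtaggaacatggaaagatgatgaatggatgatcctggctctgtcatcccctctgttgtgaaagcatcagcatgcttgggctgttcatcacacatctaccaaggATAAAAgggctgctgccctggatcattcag
Lce1e (chr3:92709075-92709224, minus strand): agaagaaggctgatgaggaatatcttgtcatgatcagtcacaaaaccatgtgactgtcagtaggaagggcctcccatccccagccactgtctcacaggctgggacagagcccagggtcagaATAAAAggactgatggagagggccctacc
Lce1j (chr3:92790515-92790664, minus strand): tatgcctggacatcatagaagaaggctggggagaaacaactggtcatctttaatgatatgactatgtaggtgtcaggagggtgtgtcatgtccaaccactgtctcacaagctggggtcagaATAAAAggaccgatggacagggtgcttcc

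The motifs, chosen with results of these data known, were searched on both strands of the 250 bases before each start. AP-1 motifs were in all 7 Sprr2 windows, in 9 of the 11 Sprr windows, in 4 of the 5 filaggrin-type windows and in those of Lor and Ivl. They were in 0 of the 12 Lce1 and 0 of the 6 Lce3 windows, against 6.75% of the windows of all genes. The octamer was in all 7 Sprr2 windows and in 0 windows of the Lce1, Lce3 and filaggrin-type genes, against 1.6% of all windows. TATAAA was in 10 of the 11 Sprr windows, 2 of the 12 Lce1 and 1 of the 6 Lce3 windows, against 12.4% of all. ATAAAA was in 11 of the 12 Lce1 windows, 6 of the 6 Lce3 windows and 7 of the 11 Sprr windows, against 17.0% of all. All 7 Sprr2 windows thus held the AP-1 motif, the octamer and TATAAA together, unlike the Lce1 and Lce3 windows. The absence of the AP-1 motif and the octamer from so few windows is near their low shares of all windows. It therefore marks no likeness of the Lce1 and Lce3 families.

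A further 3 motifs were searched. The ETS core CAGGAAG was in 1 Lce3 window and in 0 of the Sprr and Lce1 windows, against 10.8% of all windows. The GRHL motif AACNNGTT was found in Rptn alone among the Sprr, Lce1, Lce3 and filaggrin-type windows, against 3.64% of all. The antioxidant response element TGACNNNGC was in 2 of the 11 Sprr, 1 of the 12 Lce1 and 3 of the 6 Lce3 windows, against 10.2% of all. A match of letters is a description of the window and not evidence of binding. Promoter identity had a median of 65.78% over the 21 pairs of Sprr2 windows, and Sprr2d and Sprr2e were the closest at 89.29%. The median was 58.61% over the 15 Lce3 pairs and 62.73% over the 66 Lce1 pairs. Between families it was 51.35% for Lce3 and Sprr2, 52.25% for Lce1 and Lce3 and 52.21% for Lce1 and Sprr2 windows.

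The microRNA is shown for its seed, bases 2 to 8, in capitals. RefSeq gives the 3p arm, the better known of its arms, at chr11:75173723-75173744 on the plus strand of GRCm38.p6; the labels leave unsaid whether the mimic is this arm.
mmu-miR-132-3p: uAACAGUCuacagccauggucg

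Across all 17359 genes tested, limma with Benjamini-Hochberg adjustment placed 0 genes (0%) past the adjusted threshold of 0.05, with 0.5928 as the smallest adjusted value. Without adjustment, p was under 0.05 for 989 genes (5.7%) that were lower with miR-132 and for 422 (2.43%) that were higher. This split depended on scaling, with 605 lower and 561 higher after quantile normalization and 1573 lower and 122 higher after centring each array on its median. The median SD of a gene was 0.232 on the miR-132 arrays and 0.1716 on the control arrays. The range between percentiles 10 and 90 of the signal was 4.24 on miR-132 replicate 2 and 4.44 on replicate 5, against 4.62 to 4.87 on the control arrays, so both stood apart. The medians of the Sprr and Lce3 differences with and without these arrays are given below.

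None of the 38 cornified envelope genes tested passed the adjusted threshold. The Sprr1, Sprr2 and Lce3 genes averaged lower with miR-132, most of them by more than 2-fold, the Lce1 genes lay near the control mean, and the filaggrin-type genes averaged higher with a wide spread. At an unadjusted p under 0.05, 6 of the 38 were lower and 0 were higher, against the 5.7% and 2.43% of all genes. These 6 were Sprr2j-ps, Sprr2g, Sprr1b, Sprr1a, Lce3c and Lce3d, and leaving out any 1 array other than miR-132 replicate 3 left between 1 and 5 such genes. A mean at least 2-fold lower was seen for 15 of the 38, against 0.691% of all genes, and 1, Flg2, averaged at least 2-fold higher, against 0.0346%. For all 38 genes the range of the miR-132 arrays overlapped that of the control arrays, whereas 0.657% of all genes were lower without overlap and 0.288% higher without overlap.

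**Figure D1:**
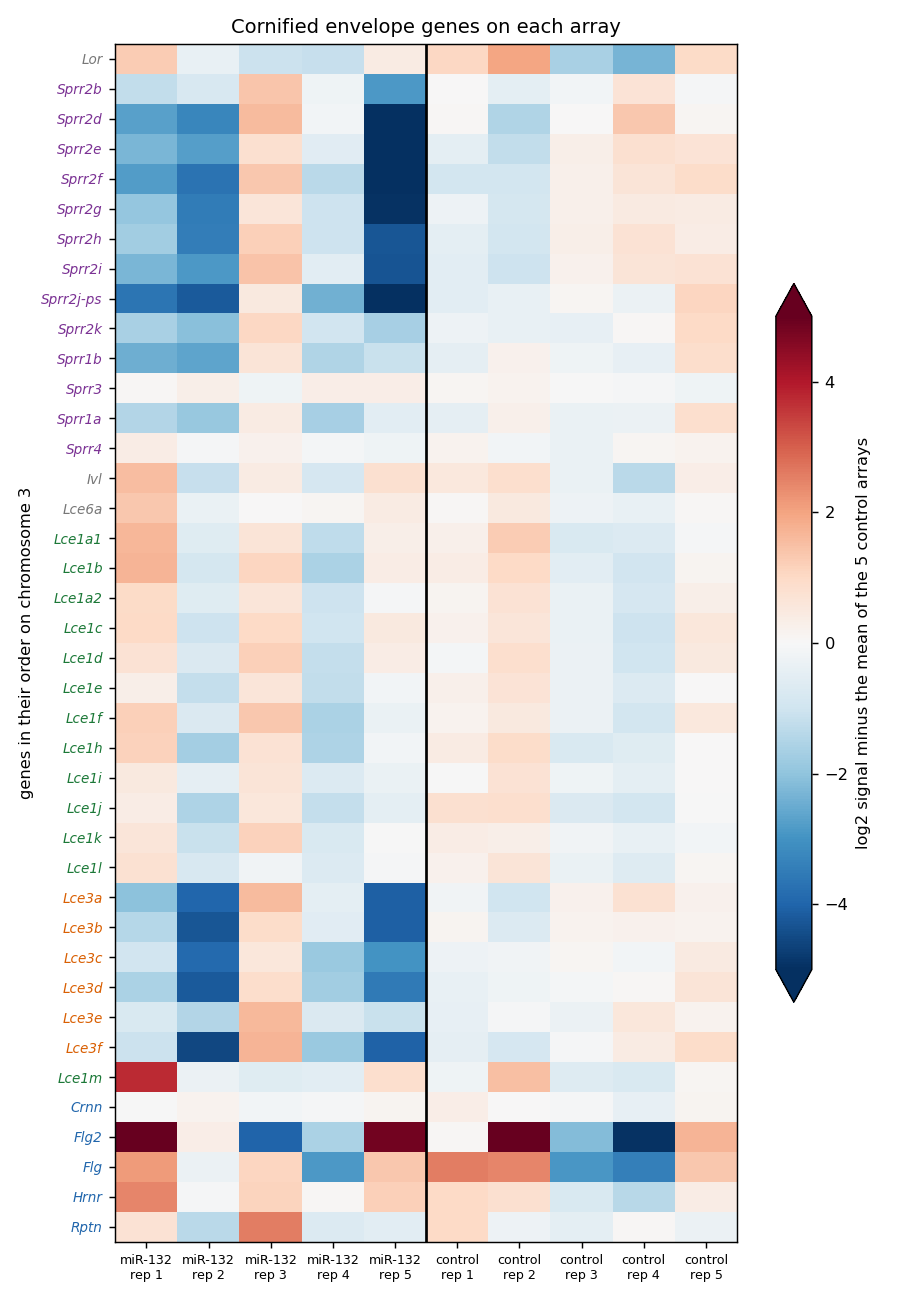
Deviation of each of the 40 genes from its control mean (log2, colour) on each array, with the 5 miR-132 arrays left of the 5 control arrays. The colour scale is capped at both ends. Sprr1, Sprr2 and Lce3 genes are low on miR-132 replicates 1, 2 and 5 and high on replicate 3. The Lce1 and filaggrin-type genes do not share the low replicate 1. Replicate 3 is also the highest miR-132 array for 7 of the 13 Lce1 genes.

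The Sprr genes encode small proline-rich proteins that bridge other envelope proteins and make the envelope tougher. Of the 12 tested, 11 had a lower mean with miR-132 and 1, Sprr4, had a mean 0.04 higher, which turned to -0.04 after median centring. Over all genes, 53.8% had a lower and 44.8% a higher mean. The median difference was -1.79 on the log2 scale (from -3.05 to 0.04), against -0.02 over all genes tested, and 10 of the 12 averaged at least 2-fold lower. Among the 9 Sprr2 genes all 9 means were lower, with a median difference of -1.99, and both Sprr1 means were lower.

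Sprr2j-ps, a transcribed pseudogene of the Sprr2 cluster, had the smallest p of the 38 cornified envelope genes tested. Its log2 signal was 9.50, 8.95, 13.62, 10.73 and 7.64 on miR-132 replicates 1 to 5, against 12.59, 12.77, 13.25, 12.85 and 14.22 on control replicates 1 to 5. Thus 4 of the 5 miR-132 arrays lay below every control array, and replicate 3 lay inside the control range. The means were 10.09 ± 2.27 with miR-132 and 13.14 ± 0.65 in controls (SD, n = 5 each), a difference of -3.05 ± 0.96 (SE), or 8.27-fold lower, with limma adjusted p = 0.593.

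Sprr1b, a precursor that transglutaminase links into the envelope, read 14.26, 14.08, 17.35, 15.21 and 15.61 with miR-132, against 16.27, 16.92, 16.49, 16.30 and 17.58 in controls. Again replicate 3 was the only miR-132 array inside the control range. The difference was -1.41 ± 0.58 (SE), or 2.66-fold lower, with limma adjusted p = 0.593. Its relative Sprr1a, which lies beyond Sprr3 and is also known from regenerating nerve cells, read 15.27, 14.84, 17.15, 15.06 and 16.21 with miR-132, against 16.28, 16.99, 16.38, 16.43 and 17.57 in controls. The same 4 arrays were below every control, replicate 5 by a small step, and the difference was -1.02 ± 0.45 (limma adjusted p = 0.614).

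Sprr2g, annotated as a transcribed pseudogene, read 8.91, 7.35, 11.44, 9.80 and 5.90 with miR-132, against 10.58, 9.96, 11.09, 11.29 and 11.22 in controls. Here replicate 3 was above every control array and the other 4 were below every one. The difference was -2.15 ± 0.90 (SE), or 4.43-fold lower, with limma adjusted p = 0.595.

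Sprr2f, whose promoter is printed above, had the widest range of the Sprr genes. It read 11.21, 10.28, 15.33, 12.65 and 6.38 with miR-132, against 13.06, 13.07, 14.23, 14.64 and 14.92 in controls. Its difference of -2.81 ± 1.38 had limma adjusted p = 0.633, and its SD was 3.29 with miR-132 and 0.87 in controls. The neighbouring Sprr2e and Sprr2d differed by -2.30 ± 1.2 and -1.99 ± 1.19, Sprr2h by -1.87 ± 0.91 and Sprr2i by -1.71 ± 0.95. Among the Sprr2 genes with a feature of their own, Sprr2b was the brightest, with a control mean of 18.13, and differed by -0.74 ± 0.65. Sprr2k was the dimmest of them, with a control mean of 7.77, and differed by -1.05 ± 0.56. Unadjusted limma p for these 7 genes lay between 0.0683 and 0.284. Sprr2 genes are near-identical copies in places, so their probes may read more than 1 of them, and their values are not independent of each other. Whether probes of the Lce1 and Lce3 genes also do so was not tested, and a feature was shared by Lce1g and Lce1l. Counts of genes within any of these families are therefore not counts of independent genes.

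The remaining Sprr genes did not show this. Sprr4, known in human skin for its induction by ultraviolet light, read 5.23 to 5.78 with miR-132 (median 5.36), against 5.08 to 5.61 in controls (median 5.53). Sprr3, which belongs to the lining of the oesophagus and mouth, read 3.16 to 3.73 with miR-132, against 3.18 to 3.57 in controls, below the level filter, and was not tested. A feature shared by Sprr2a1, Sprr2a2 and Sprr2a3, which was not named or tested, read the upper signal limit of 19.93 on 9 arrays and 18.94 on miR-132 replicate 5. Another, shared by Sprr2a1 and Sprr2a2, read 8.03 to 9.21 with miR-132 and 8.48 to 8.93 in controls.

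**Figure D2:**
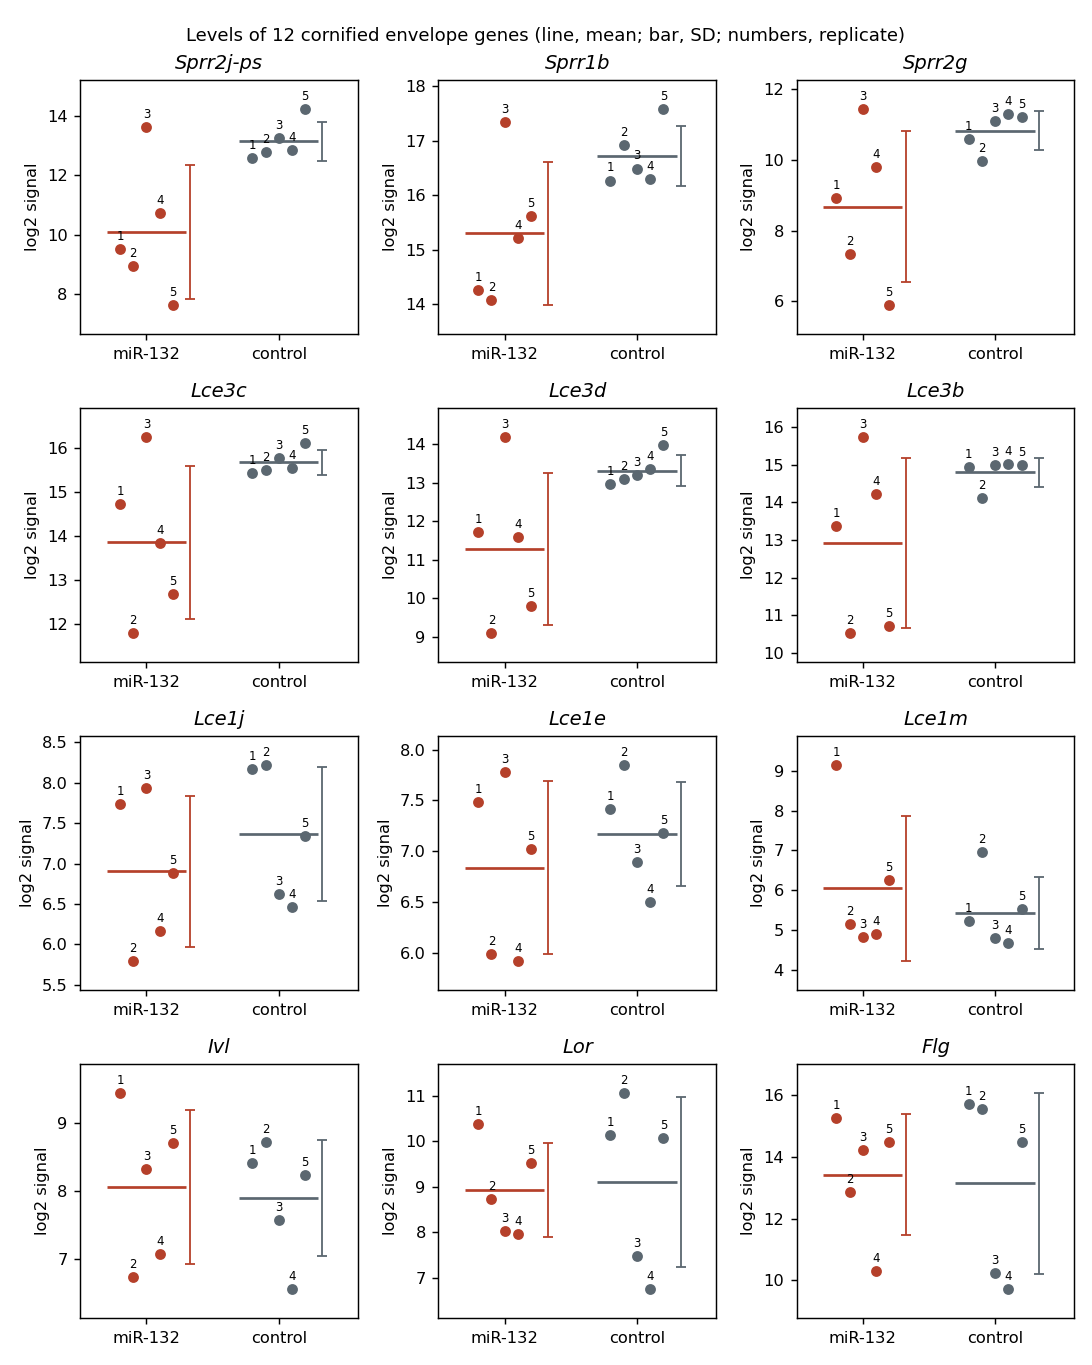
Log2 signal of the genes described in full on each array, miR-132 arrays left and control arrays right, with a line at the group mean, a bar for the SD and the replicate number beside each point. Sprr2j-ps, Sprr2g, Lce3c and Lce3d have 1 high miR-132 point, replicate 3, and 4 points below the controls, while Lce1, Ivl, Lor and Flg points overlap throughout.

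The 6 Lce3 genes encode small proteins of the late envelope that in human skin are scarce until the barrier is injured. All 6 had a lower mean with miR-132, 5 of them at least 2-fold, with a median difference of -1.85 (from -2.04 to -0.49). Lce3c read 14.72, 11.79, 16.26, 13.83 and 12.68 with miR-132, against 15.43, 15.50, 15.78, 15.55 and 16.13 in controls. Replicate 3 was above every control and the other 4 miR-132 arrays were below every control, while the controls spanned only 0.70. Its difference was -1.82 ± 0.72 (SE), or 3.54-fold lower, with limma adjusted p = 0.593.

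Lce3d, the neighbour of Lce3c, read 11.72, 9.10, 14.19, 11.59 and 9.79 with miR-132, against 12.96, 13.09, 13.21, 13.36 and 13.97 in controls. The arrays fell in the same places as for Lce3c. The difference was -2.04 ± 0.82, or 4.11-fold lower, with limma adjusted p = 0.593. Lce3b read 13.38, 10.54, 15.74, 14.23 and 10.72 with miR-132, against 14.93, 14.12, 14.99, 15.01 and 14.99 in controls. Here replicate 4 lay above control replicate 2 and below the other controls, and the difference of -1.89 ± 0.93 had limma adjusted p = 0.633.

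Lce3f differed by -1.97 ± 1.06 and Lce3a by -1.79 ± 1.02, with control means of 12.32 and 10.76. Lce3e, the dimmest with a control mean of 5.47, differed by -0.49 ± 0.52. For these 3 genes the unadjusted limma p lay between 0.0941 and 0.368.

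The Sprr and Lce3 genes had the same high miR-132 array. Of the miR-132 arrays, replicate 3 was the highest for 11 of the 12 Sprr genes and for all 6 Lce3 genes. It was above every control array for 8 Sprr genes and for all 6 Lce3 genes. Among the 13 Lce1 genes it was the highest miR-132 array for 7 and above every control for 5. Replicates 1, 2 and 5 were each below every control array for 11 of the 12 Sprr genes and for 6 of the 6 Lce3 genes, and replicate 4 for 7 Sprr and 4 Lce3 genes. The lowest miR-132 array was replicate 5 for 9 Sprr genes and replicate 2 for 5 Lce3 genes. Counts of genes above or below every control on a single array were not made over all genes. Whether they are particular to these families therefore cannot be told, and replicates 2 and 5 had the narrower signal range given above.

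Averaged over the 12 Sprr genes, the miR-132 arrays lay -1.98, -2.60, 0.93, -0.96 and -3.76 from the control mean, against -0.34, -0.62, 0.00, 0.37 and 0.59 on the control arrays. Averaged over the 6 Lce3 genes, they lay -1.31, -3.73, 1.22, -1.20 and -3.32 from it, against -0.25, -0.50, 0.00, 0.31 and 0.44 on the control arrays. Both families were thus low on 4 miR-132 arrays and high on 1, and their spread within the miR-132 group exceeded the spread within the controls. The SD was at least 2 times larger with miR-132 for 10 of the 12 Sprr genes and for all 6 Lce3 genes, against 26.2% of all genes. A larger SD of any size with miR-132 was seen for 35 of the 38 genes, against 68.3% of all genes. Their median SD was 2.14 with miR-132 and 0.62 in controls for the Sprr genes, and 2.12 with miR-132 and 0.39 in controls for the Lce3 genes.

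With miR-132 replicate 3 left out, the median difference was -2.56 for the Sprr genes and -2.62 for the Lce3 genes. Without overlap with the controls were then 7 Sprr and 4 Lce3 genes, all lower, against 5.04% of all genes that were lower and 0.841% that were higher without overlap. In that fit 17 of the 38 genes had an unadjusted p under 0.05 and a lower mean, against 10.6% of all genes. Sprr2j-ps, one of 55 genes genome-wide, passed the adjusted threshold, with a difference of -3.93 ± 0.59 and limma adjusted p = 0.0453. Replicate 3 was singled out as the highest miR-132 array of most of these genes. Its removal favours their separation from the controls, so neither these counts nor this adjusted value are evidence of a difference. With miR-132 replicates 2 and 5 left out instead, the median differences were -0.61 for the Sprr genes and -0.38 for the Lce3 genes, and 0 of the 38 genes had an unadjusted limma p under 0.05 with a lower mean. Leaving out replicate 5 alone gave a Sprr median of -1.18. The size of these differences therefore rested on which miR-132 arrays were kept.

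**Figure D3:**
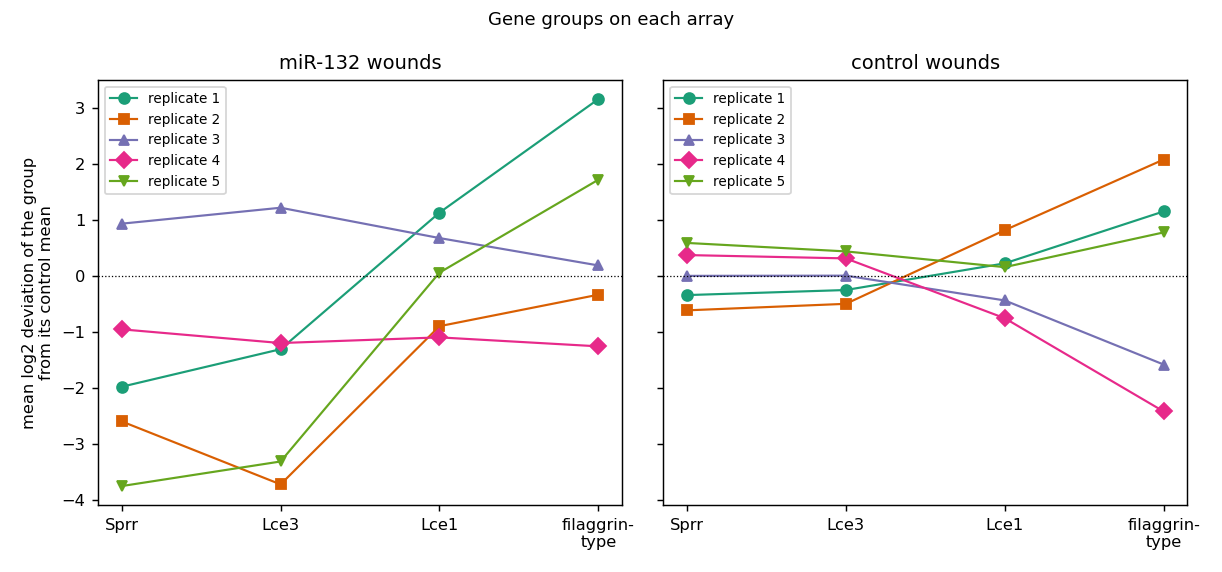
Mean deviation from the control mean (log2) of the Sprr, Lce3, Lce1 and filaggrin-type genes on each array, miR-132 wounds in the left panel and control wounds in the right, with a line joining the values of an array. On the miR-132 arrays the Sprr mean runs from -3.76 to 0.93 and the Lce3 mean from -3.73 to 1.22, while the Lce1 mean stays between -1.10 and 1.13.

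The 13 Lce1 genes encode late envelope proteins of ordinary epidermal differentiation and did not share the low means of Lce3 and Sprr. Single arrays were low here too, as miR-132 replicate 4 was below every control for 11 of the 13 and replicate 2 for 6. Replicate 1 was above every control for 9 and replicate 3 for 5. These counts, too, were not made over all genes. Of the 13, 8 had a lower and 5 a higher mean with miR-132, shares near the 53.8% and 44.8% of all genes. The median difference was -0.03 (from -0.46 to 0.62), 0 averaged at least 2-fold lower and 0 reached an unadjusted p under 0.05. After quantile normalization the median was 0.05, and the negative differences of Lce1a2, Lce1f, Lce1i and Lce1k turned positive. The smallest unadjusted limma p was that of Lce1j, which read 7.74, 5.80, 7.93, 6.17 and 6.88 with miR-132, against 8.17, 8.22, 6.62, 6.46 and 7.34 in controls. The groups overlapped widely, with a difference of -0.46 ± 0.51 (limma adjusted p = 0.827).

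Lce1e read 7.48, 5.99, 7.78, 5.92 and 7.02 with miR-132, against 7.42, 7.85, 6.89, 6.5 and 7.18 in controls, and its difference was -0.33 ± 0.41 (limma adjusted p = 0.845). Lce1m, which lies beyond the Lce3 genes and apart from the other Lce1 genes, read 9.15, 5.15, 4.82, 4.90 and 6.26 with miR-132, against 5.22, 6.95, 4.8, 4.68 and 5.52 in controls. Its difference of 0.62 ± 0.83 (limma adjusted p = 0.859) came with a single high array, miR-132 replicate 1. The brightest members, Lce1a1 and Lce1b, had means of 12.04 and 11.15 with miR-132, against 11.90 and 11.01 in controls. The other 8 Lce1 genes had differences from -0.31 (Lce1h) to 0.09 (Lce1c).

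The Lce1 genes varied between arrays of both groups. Averaged over the 13 genes, the miR-132 arrays lay 1.13, -0.90, 0.68, -1.10 and 0.06 from the control mean, against 0.22, 0.82, -0.44, -0.76 and 0.16 on the control arrays. Control replicate 2 was the highest control for 11 of the 13 and control replicate 4 the lowest for 11 of the 13. Their median SD was 0.997 with miR-132 and 0.68 in controls, so the control spread of this family was close to the 0.62 of the Sprr genes.

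Set against each other on the same array, the families parted beyond the control range on 3 miR-132 arrays, on 1 of them only just for Sprr. The Sprr mean deviation minus the Lce1 mean deviation was -3.11, -1.70, 0.26, 0.14 and -3.81 on the miR-132 arrays, against -0.57, -1.43, 0.44, 1.13 and 0.43 on the control arrays, a mean of -1.65 with miR-132. The Lce3 mean deviation minus the Lce1 mean deviation was -2.44, -2.83, 0.54, -0.10 and -3.37, against -0.48, -1.32, 0.44, 1.07 and 0.28, a mean of -1.64. Replicates 1, 2 and 5 were the low ones in both, and replicates 3 and 4 lay inside the control range. For Sprr minus Lce1, miR-132 replicate 2 at -1.70 was close to control replicate 2 at -1.43. No p is given for these contrasts, since the families were chosen with results of these data known.

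**Figure D4:**
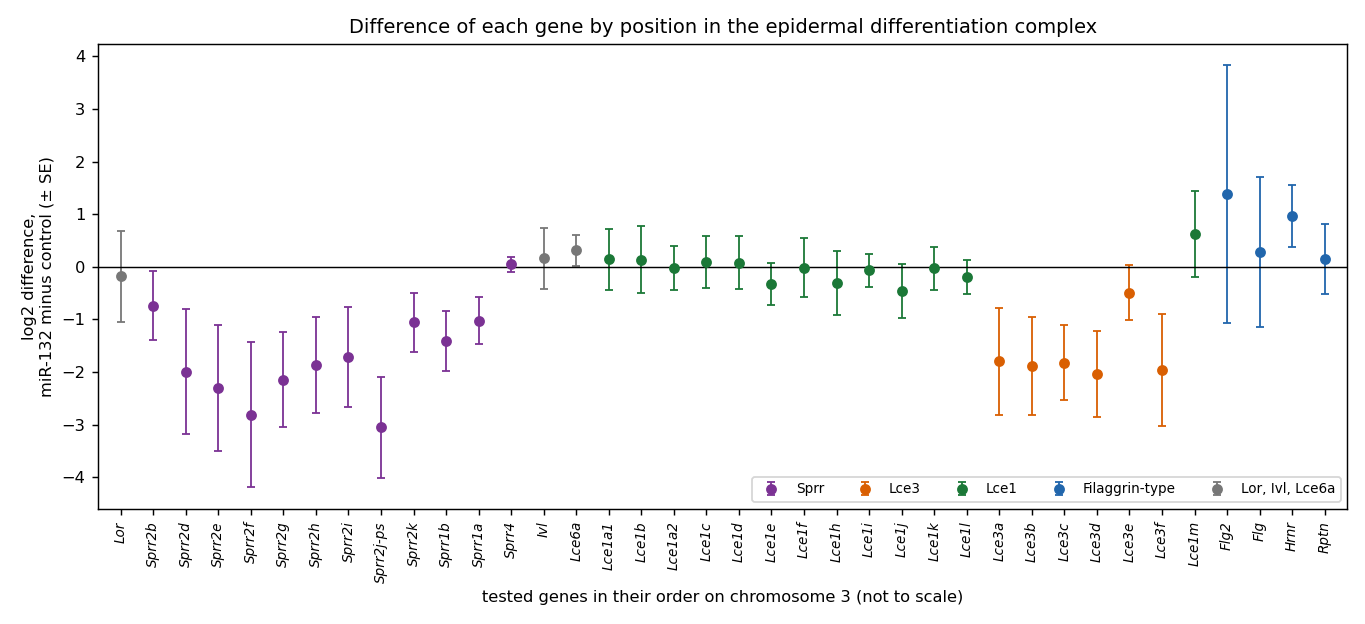
Log2 difference, miR-132 minus control, with its SE, for the genes in their order along chromosome 3, coloured by family. The Sprr1 and Sprr2 genes on one side of the main run of Lce1 genes and the Lce3 genes on the other side lie below 0, while those Lce1 genes and Sprr4 lie near 0.

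Along the chromosome the low differences were not one unbroken block. In the order of the RefSeq gene table, Lor is followed by the Sprr2 genes, Sprr1b, Sprr3, Sprr1a, Sprr4, Ivl, Lce6a and the Lce1 genes, then by the Lce3 genes, Lce1m, Crnn, Flg2, Flg, Hrnr and Rptn. The Sprr2, Sprr1 and Lce3 genes averaged lower, and between them Sprr4, Ivl, Lce6a and the main run of Lce1 genes had differences from -0.46 to 0.31.

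Loricrin and involucrin, the textbook proteins of the mature envelope and of its first scaffold, overlapped between the groups. Lor read 10.38, 8.72, 8.02, 7.96 and 9.51 with miR-132, against 10.14, 11.06, 7.47, 6.76 and 10.06 in controls, a difference of -0.18 ± 0.87 (limma adjusted p = 0.972). Ivl read 9.45, 6.73, 8.32, 7.07 and 8.71 with miR-132, against 8.41, 8.72, 7.57, 6.56 and 8.23 in controls, a difference of 0.16 ± 0.58 (limma adjusted p = 0.961). For both genes miR-132 replicate 1 was the highest of its group, control replicate 2 the highest control and control replicate 4 the lowest control. Lce6a, a single LCE gene near the level filter, averaged 4.52 ± 0.64 with miR-132 and 4.21 ± 0.33 in controls (SD, n = 5 each).

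The filaggrin-type genes encode large proteins of the granular layer that bind keratin filaments or the envelope. All 4 tested had a higher mean with miR-132, with a median difference of 0.62 (from 0.15 to 1.38), which became -0.05 without miR-132 replicate 1. Of the 4, 0 had an unadjusted limma p under 0.05. Flg, whose product bundles keratin filaments and is then cut into water-binding amino acids, read 15.28, 12.85, 14.23, 10.29 and 14.50 with miR-132, against 15.72, 15.57, 10.23, 9.73 and 14.49 in controls. Both groups held high and low arrays, and its difference was 0.28 ± 1.43 (limma adjusted p = 0.972).

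Flg2, which encodes a relative of filaggrin, had the widest range of all 40 genes. It read 16.43, 9.44, 5.12, 7.55 and 13.96 with miR-132, against 9.17, 14.47, 6.94, 4.19 and 10.82 in controls. Its SD was 4.63 with miR-132 and 3.89 in controls, and the difference of 1.38 ± 2.45 had limma adjusted p = 0.904. Hrnr, which encodes hornerin, read 19.74, 17.24, 18.40, 17.34 and 18.49 with miR-132, against 18.26, 18.08, 16.52, 15.90 and 17.64 in controls. Replicates 1, 3 and 5 of miR-132 were above every control, and the difference of 0.96 ± 0.59 had limma adjusted p = 0.683. Rptn, which encodes repetin, differed by 0.15 ± 0.67, and miR-132 replicate 3 was its highest array at 12.84, as in 7 of the 9 Sprr2 genes. Crnn, a gene of the oesophageal lining, read 3.73 to 4.02 with miR-132 and 3.44 to 4.19 in controls, below the level filter.

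Averaged over the 4 tested filaggrin-type genes, the miR-132 arrays lay 3.16, -0.34, 0.19, -1.26 and 1.72 from the control mean, against 1.15, 2.08, -1.58, -2.42 and 0.78 on the control arrays. By this mean the order of the control arrays was that of Lor and of the Lce1 mean, with replicate 2 at the top and replicate 4 at the bottom. Gene by gene, control replicate 1 was the highest for 3 of the 4 and replicate 2 for Flg2 alone, while replicate 4 was the lowest for 3. In the Sprr and Lce3 means the control order was another, with replicate 2 at the bottom and replicate 5 at the top. Replicate 2 was the lowest control for 6 of the 12 Sprr and 3 of the 6 Lce3 genes. Replicate 5 was the highest for 6 Sprr and 3 Lce3 genes.

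The partners of these genes in building the envelope were counted in 5 lists, and 0 genes of any list passed the adjusted threshold. Over all genes tested, 53.8% had a lower mean and 5.7% were lower at an unadjusted p under 0.05. The list of envelope crosslinking and scaffold genes had 14 members tested, all 14 with a lower mean and 7 with an unadjusted p under 0.05, and a median difference of -0.76. One of the 14, Stfa1, read the signal limit on 8 of the 10 arrays. Tgm1, the membrane-bound transglutaminase of the envelope, read 11.74, 10.93, 13.85, 12.26 and 10.17 with miR-132, against 12.99, 13.63, 13.59, 13.93 and 14.17 in controls. As for Sprr2j-ps, Sprr1b and Sprr1a, replicate 3 alone of the miR-132 arrays lay inside the control range, and the difference was -1.87 ± 0.60 (limma adjusted p = 0.593). Tgm3, a soluble transglutaminase that acts on SPRR proteins, differed by -1.90 ± 0.66, and Dsp, the desmosomal plakin, by -0.53 ± 0.17. Dsp read 18.30 to 19.32 with miR-132 and 19.23 to 19.26 in controls, a nearly flat control signal close to the signal limit. Whether that signal was saturated was not tested.

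The list of transcription factors of epidermal differentiation had 14 tested, of which 13 had a lower mean and 5 an unadjusted p under 0.05, with a median difference of -0.48. Klf4, needed for barrier formation in mouse skin, read 8.93, 9.03, 10.05, 9.36 and 8.82 with miR-132, against 10.07, 10.38, 9.81, 9.91 and 10.18 in controls, a difference of -0.83 ± 0.24 (limma adjusted p = 0.593). Grhl3, a regulator of Tgm1, differed by -2.06 ± 0.67, and Ovol1, a repressor of proliferation in differentiating keratinocytes, by -1.15 ± 0.43. Their 4 low miR-132 arrays and the high replicate 3 were again those of the Sprr genes.

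Of the barrier lipid genes, 9 of 9 had a lower mean and 2 an unadjusted p under 0.05, with a median difference of -0.95, and of -1.46 without miR-132 replicate 3. Cers3, a synthase of the very long ceramides bound to the envelope, differed by -1.35, Elovl4, which makes their fatty acids, by -0.90, and Sult2b1, the cholesterol sulfotransferase, by -0.69. Of the granular layer processing genes, 8 of 10 had a lower mean and 1 an unadjusted p under 0.05, with a median of -0.51. That median was -0.83 without miR-132 replicate 3 and -0.34 without replicate 5. Tmprss13 differed by -1.06, Casp14, which takes part in cutting filaggrin, by -1.12 and the protease St14 by -0.48. Of the other genes of the epidermal differentiation complex, 10 of 12 had a lower mean and 1 an unadjusted p under 0.05, a share near that of all genes, with a median of -0.44. That median was -0.25 without control replicate 4 and -0.27 without control replicate 5, and S100a8 and S100a9 read the signal limit on 9 arrays each. Crct1, which lies between the Lce3 genes and Lce1m, differed by -1.27 ± 0.55, Pglyrp3, a bacteria-binding protein, by -1.23 ± 0.56 and S100a16 by -0.39 ± 0.21.

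**Figure D5:**
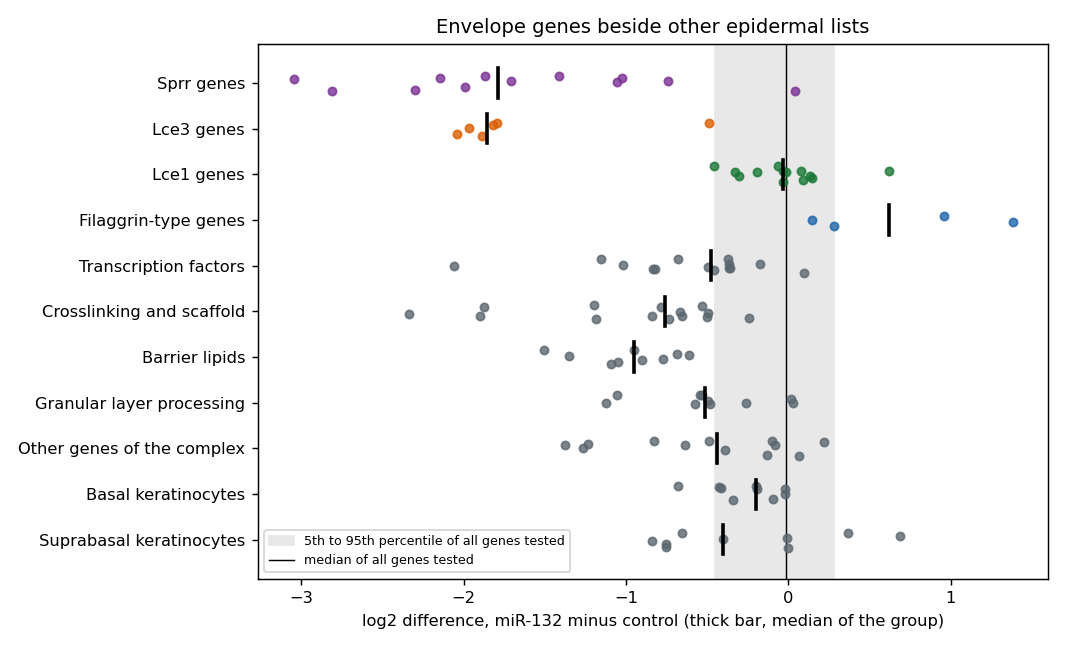
Log2 difference, miR-132 minus control, of each tested gene in the envelope families, in the 5 lists of partner genes and among the basal and suprabasal keratinocyte markers, with a thick bar at each median. The grey band runs from the 5th to the 95th percentile of all genes tested, from -0.45 to 0.28. Medians are -1.79 for Sprr, -1.85 for Lce3, -0.03 for Lce1 and 0.62 for the filaggrin-type genes, and from -0.95 to -0.44 for the partner lists.

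Markers of the cell types in the wound edge were read on the same arrays. Markers of wound-activated keratinocytes moved with the Sprr and Lce3 genes: their mean deviation was -1.05, -1.41, 0.37, -0.56 and -1.68 on miR-132 replicates 1 to 5, against -0.37, -0.16, 0.12, 0.22 and 0.19 in controls. Of the 5 tested, 4 had a lower mean with miR-132 and the fifth, Krt16, read the signal limit on all 10 arrays, while Krt6a and Krt6b were not measured by a feature of their own. Krt17, a keratin of activated keratinocytes, read 14.04, 14.22, 16.26, 15.74 and 12.78 with miR-132, against 16, 15.52, 16.07, 16.47 and 16.23 in controls. The mean level of the list was 11.77 to 13.82 with miR-132 and 13.08 to 13.67 in controls. This pattern was not particular to these markers, as each list of partner genes was also below its control mean on replicates 1, 2, 4 and 5 and above it on replicate 3. The barrier lipid genes deviated by -0.808, -1.638, 0.678, -1.388 and -1.805 on miR-132 replicates 1 to 5. The crosslinking and scaffold genes deviated by -0.84, -1.45, 0.24, -1.12 and -1.81. The part of wound-activated keratinocytes in the Sprr and Lce3 values was not tested.

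Markers of suprabasal keratinocytes deviated by 0.53, -0.50, -0.21, -0.74 and -0.40 on the miR-132 arrays, against 0.26, 0.67, -0.36, -0.86 and 0.29 in controls. Control replicate 2 was the highest and control replicate 4 the lowest, as in the means of the Lce1 and filaggrin-type genes. Of the 9, 6 had a lower and 2 a higher mean and Krt1 read the limit on all 10 arrays and Krt10 on 8; the mean level was 14.16 to 15.43 with miR-132 and 14.04 to 15.57 in controls. All 9 basal keratinocyte markers had a lower mean with a median of -0.20, although Krt5 read the limit on 8 arrays and Krt14 on 9. Their mean level was 10.48 to 11.13 with miR-132 and 10.72 to 11.58 in controls. The epidermis was thus present on every array by its keratin markers. All 8 neutrophil markers had a lower mean (median -0.55), against 53.8% of all genes, although S100a8 and S100a9 read the limit on 9 arrays each. The list stood at mean levels of 10.35 to 10.95 with miR-132 and 9.97 to 12.34 in controls. Of the macrophage markers 3 of 8 had a lower mean (median 0.13), of the sebaceous gland markers 4 of 5 (median -0.33), and of the hair follicle markers 3 of 7 (median 0.08). Of the fibroblast and endothelial markers 4 of 5 each had a lower mean (medians -0.25 and -0.15), of the adipocyte markers 0 of 5 (median 0.39) and of the skeletal muscle markers 5 of 5 (median -0.51). The part of these cell types in the results was not tested.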

How the data were processed

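RNA of 5 miR-132 and 5 control wounds, 1 array per mouse by the series' design text, was hybridised to Clariom D arrays. The authors normalized the arrays by RMA in Affymetrix Expression Console 1.4, per the submitters' processing notes. The deposited values are taken as log2 signal because of their range and a common ceiling at 19.93, since the labels do not state the scale. For the genome build of the features, the sources used here name none. Of 72688 features, 30604 had 1 gene and 2146 had several, and the second kind was not named. The brightest feature of a gene by its mean over the 10 arrays was kept.

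The groups were compared with limma 3.58.1 in R 4.3.3 (lmFit, eBayes with an intensity trend, two-sided) on the 17359 genes with a mean above 4.171, with no pseudocount or covariate and with Benjamini-Hochberg adjustment over all of them. The procedure was tested on simulated data. The number of arrays limits the precision.

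Full values were given for the 3 Sprr, 3 Lce1 and 3 Lce3 genes with the smallest unadjusted p and for Ivl, Lor and Flg, and of each list of partner genes the 3 with the smallest p were named. Other genes were named after their values were seen. The genes, lists and motifs were chosen with earlier results of these data known, so no group or list has a p-value. Alternatives were quantile normalization, median centring, no level filter, no trend, a replicate block, the mean of a gene's features, and leaving out arrays.

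Same-numbered samples were not treated as paired, since the labels name no pairing. The correlation of their deviations from the group means was 0.163, 0.14, 0.0425, 0.000498 and -0.0295 for numbers 1 to 5. Of the miR-132 arrays, only replicate 2 correlated best with the control of its own number. Such correlations cannot show that samples shared no batch.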

Additional observations from a re-analysis of the deposited data

Results flagged for a closer look

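The 40 genes and the group means per array were screened for an array far from the others of its group, by a rule that chance meets in about 1 of 20 groups, and 2 of 92 screened groups of arrays met it. Lce3e read 7.09 on miR-132 replicate 3, against 4.00 to 4.76 on the other miR-132 arrays, a gap of 0.754 of the group's range. Lce3b read 14.12 on control replicate 2, against 14.93 to 15.01 on the other control arrays, a gap of 0.91 of the range. The first is the array on which all 6 Lce3 genes had their highest miR-132 value.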

How the results depend on the processing

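The adjusted threshold was passed by 0 genes under quantile normalization, median centring, no level filter, no intensity trend, a replicate block, the mean of a gene's features and without miR-132 replicates 2 and 5. Leaving out 1 array gave 0 to 55 genes past it genome-wide and 0 to 1 of the 38 cornified envelope genes, both highest without miR-132 replicate 3. The count of genes lower at an unadjusted p under 0.05 was 7 with the replicate block, 5 to 8 under the scalings, 0 without miR-132 replicates 2 and 5, and 1 to 17 when 1 array was left out. It was 1 without control replicate 5 or miR-132 replicate 2, 2 without control replicate 3, 3 without control replicate 4 or miR-132 replicate 1, 4 or 5, and 4 without control replicate 2. The labels do not say that the replicate numbers pair the samples, and the block gave 805 lower and 453 higher genes genome-wide at that p.

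No Sprr1, Sprr2 or Lce3 difference changed its sign when 1 array was left out, whereas most of the other differences did. Among those that did were the 1.38 of Flg2 and the 0.62 of Lce1m. Hrnr, Sprr3, Lce6a, Lce1e, Lce1j and Lce1l kept their sign. With 1 array left out, the Sprr median lay between -2.56 and -1.18, the Lce3 median between -2.62 and -1.30, the Lce1 median between -0.26 and 0.22 and the filaggrin-type median between -0.05 and 1.13. Ranges that crossed 0 were -0.57 to 1.07 for Flg, -0.10 to 2.73 for Flg2, -0.19 to 0.49 for Ivl, -0.086 to 0.10 for Crnn, which was not tested, -0.45 to 0.52 for Rptn, -0.76 to 0.31 for Lor and -0.0425 to 0.104 for Sprr4. In the Lce1 genes they were -0.24 to 0.50 for Lce1a1, -0.28 to 0.22 for Lce1a2, -0.26 to 0.57 for Lce1b, -0.16 to 0.37 for Lce1c, -0.20 to 0.40 for Lce1d, -0.36 to 0.37 for Lce1f, -0.67 to 0.047 for Lce1h, -0.25 to 0.12 for Lce1i, -0.32 to 0.24 for Lce1k and -0.15 to 1.001 for Lce1m. Quantile normalization turned Lor to 0.0074, Lce1a2 to 0.0016, Lce1f to 0.12, Lce1i to 0.0426 and Lce1k to 0.054, and median centring turned Sprr4 to -0.036 and Lce1d to 0. Without miR-132 replicates 2 and 5, Lce1a2 read 0.18, Lce1f 0.32, Lce1h 0.11, Lce1i 0.16, Lce1k 0.32 and Lce3e 0.0487. The list medians were then -0.43 for crosslinking and scaffold, -0.14 for the other genes of the complex, -0.07 for granular layer processing, -0.46 for barrier lipids and -0.25 for transcription factors. The cause of these turns was not tested.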
